A study of Mus musculus with 7 samples.

Results

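The stellate cell and fibrosis markers described here were 10 genes of the 51426 counted in each liver, taken by gene symbol and joined between livers by Ensembl identifier. They comprised 2 genes of quiescent stellate cells, Lrat and Des, and 8 genes of activation, contraction and scar matrix, namely Pdgfrb, Tgfb1, Acta2, Tagln, Dcn, Lum, Lox and Timp1. All 10 passed the filter on low counts and were among the 14754 genes tested. Liver RNA was sequenced from 3 male WT mice and 4 male TET1 KO mice. The labels give the TET1 KO as a whole body deletion, and the methods name the heterozygous line B6;129S4-Tet1tm1.1Jae/J as their origin. Mice of both genotypes were fed a high fat diet (HFD) for 16 weeks from 8 weeks of age. A group on normal chow was not analysed here, so every level below is that of a liver on HFD, and stellate cells carried the deletion along with the other cells of the liver.

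Hepatic stellate cells lie between the liver endothelium and the hepatocytes, where they store vitamin A as retinyl ester in lipid droplets. On injury they lose this store, respond to PDGF and TGF-beta, take on a contractile smooth muscle programme and lay down collagen, which is the main route to liver fibrosis. Lrat makes the retinyl ester and Des is an intermediate filament of stellate and muscle cells, whereas Acta2 and Tagln are classical signs of the myofibroblast.

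Library sizes lay between 15005277 and 22746138 counts and overlapped between genotypes, and 298 genes differed between the genotypes at an edgeR adjusted p under 0.05. Tet1 itself (ENSMUSG00000047146) lay near the floor, with 1, 4 and 1 counts in WT and 2, 1, 4 and 1 in TET1 KO livers, so the genotype labels could not be checked from it (exact two-sided permutation test of the counts scaled to depth, p = 0.714). Hepatocyte markers summed to between 69700 and 91840 CPM, the read counts scaled to library size, in the 7 livers, with Alb as the most abundant. Certain livers stood apart for groups of genes that bear on the markers. TET1 KO replicate 4 was high in the smooth muscle genes Myh11 and Cnn1 and the bile duct genes Krt19 and Epcam, TET1 KO replicate 3 in Cyp26a1, Cyp26b1 and Rarb, genes responsive to retinoic acid, and TET1 KO replicate 2 in white fat genes, whose sum was 19.4 CPM there and at most 3.25 CPM elsewhere. In a whole liver, fewer cells of a type and less RNA per cell cannot be told apart.

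None of the 10 markers was called between TET1 KO and WT livers at an adjusted p under 0.05, by edgeR's quasi-likelihood test or by DESeq2, against 2.02% of all tested genes called by edgeR, 0.874% higher and 1.15% lower, and 8.74% called by DESeq2. Lox had no adjusted p in DESeq2. At an unadjusted p under 0.05 there were 2 of 10, Lum and Timp1, both with lower values in TET1 KO livers. Over all genes 26.3% reached that p, 13.6% in the higher and 12.7% in the lower direction. The same 2 genes were those whose groups did not overlap, against 22.5% of all genes in either direction and 10.8% in the lower one. The share of markers past either limit was thus near the background. The log2 fold change had a median of -0.12 and was below 0 for 7 of 10 markers and above 0 for 3, where 51.1% of all tested genes were above 0 and their median was 0.01. An exact permutation test over the 35 splits of these 7 mice cannot give a p under 0.0286.

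**Figure D1:**
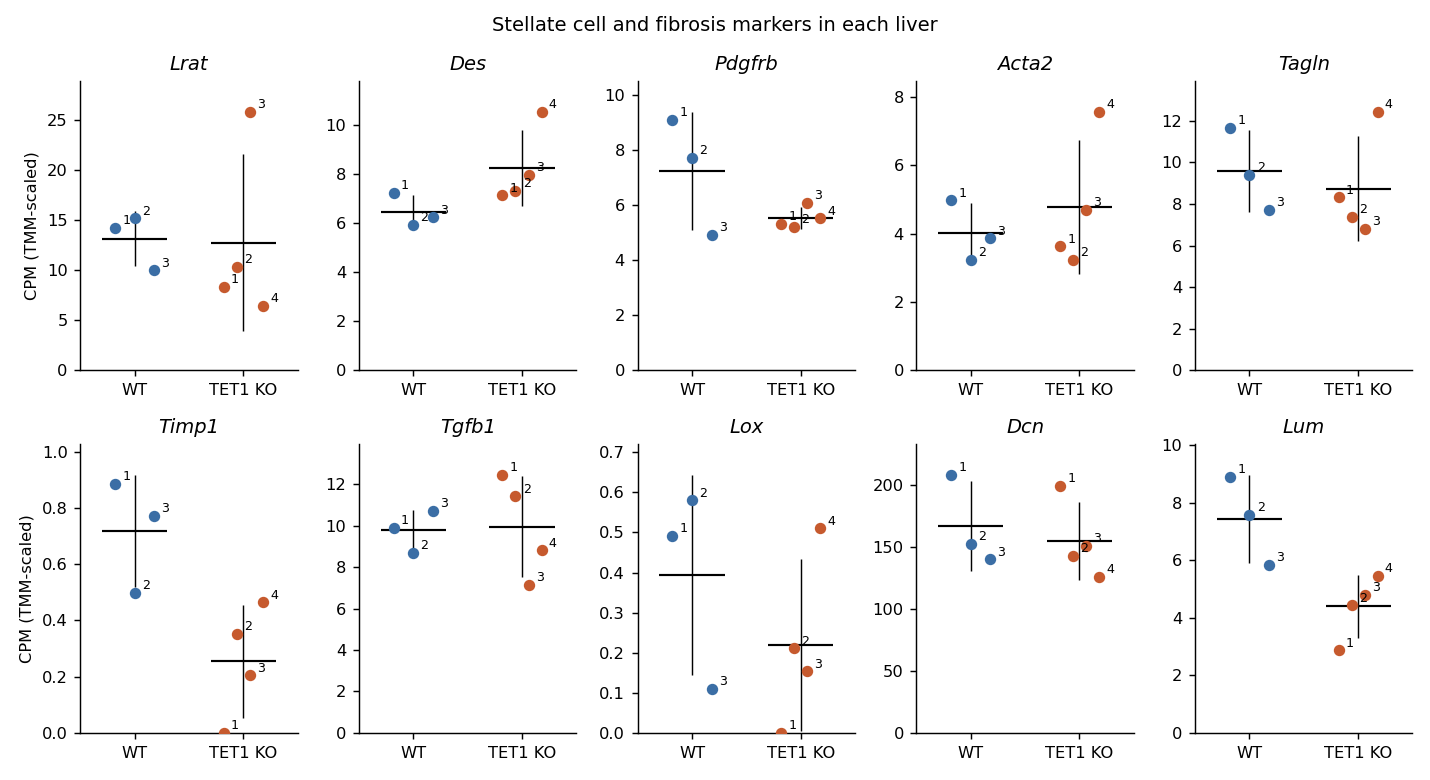
CPM of the 10 markers in each liver, scaled by TMM, on linear axes that start at 0. Points are livers numbered by replicate, horizontal lines are group means and vertical lines are ±1 SD (n = 3 WT, n = 4 TET1 KO); the groups separate for Lum and Timp1, while Lrat and Acta2 each have a single high TET1 KO liver.

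Per kilobase of exon the markers spanned a wide range of levels. On this scale (RPKM, mean of 7 livers) Dcn stood highest at 82.6, followed by Tagln at 5.74 and Tgfb1 at 3.86, and each of these exceeded the next in all 7 livers except that Tgfb1 exceeded Lum in 5 of 7. Lum at 2.75, Acta2 at 2.503, Lrat at 2.41 and Des at 1.99 followed, and the order of these 4 changed from liver to liver, each exceeding the next of them in 4 of 7. Pdgfrb at 1.14, Timp1 at 0.511 and Lox at 0.0626 were lowest, with Lox at 0 to 14 counts per library. The matrix proteoglycan Dcn was therefore by far the most abundant transcript of the set, and the injury genes Timp1 and Lox were close to the limit of detection.

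The RefSeq promoter windows (GRCm38.p6, 250 bases before to 50 after the start) held 5 of the 10 markers, Des, Lrat, Tgfb1, Acta2 and Timp1. The bases before the start are printed for Acta2 and Des, the pair whose RNA moved most closely together, and for Lrat, which did not follow them. For Acta2 the start of the window lies inside the gene span given below, which on the minus strand begins at 34255585. Its printed bases therefore lie partly within that span. Capitals mark CArG-type letters, the sequence class bound by serum response factor in smooth muscle genes.
Acta2, chr19:34255374-34255623, minus strand: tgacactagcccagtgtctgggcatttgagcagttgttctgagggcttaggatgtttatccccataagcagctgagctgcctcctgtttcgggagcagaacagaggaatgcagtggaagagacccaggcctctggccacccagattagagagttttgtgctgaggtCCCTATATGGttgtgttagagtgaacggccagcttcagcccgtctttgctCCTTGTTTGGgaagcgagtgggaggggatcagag
Des, chr1:75360042-75360291, plus strand: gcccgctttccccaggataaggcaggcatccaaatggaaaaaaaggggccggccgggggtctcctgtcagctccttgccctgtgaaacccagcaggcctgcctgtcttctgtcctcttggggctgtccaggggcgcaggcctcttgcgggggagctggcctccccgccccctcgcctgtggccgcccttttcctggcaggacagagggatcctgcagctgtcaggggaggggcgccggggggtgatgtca
Lrat, chr3:82903975-82904224, minus strand: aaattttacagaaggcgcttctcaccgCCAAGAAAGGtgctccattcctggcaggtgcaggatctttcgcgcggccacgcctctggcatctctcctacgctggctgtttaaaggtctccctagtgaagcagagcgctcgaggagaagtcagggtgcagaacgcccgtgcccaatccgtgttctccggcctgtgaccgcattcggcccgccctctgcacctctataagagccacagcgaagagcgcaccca

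The strict CArG box, CC followed by 6 letters that are each A or T and then GG, was in none of the 5 windows and in 1.63% of all 32851 promoter windows, searched on both strands. With exactly 1 of the 6 letters allowed to be G or C, a form added after the sequences had been seen, 8.5% of windows held a match. Under that form Acta2 had 2 matches, beginning 84 and 34 bases before the start used for its window. Lrat had 1 beginning 223 bases before its start, and Des, Tgfb1 and Timp1 had none in this window. The GC box GGGCGG was in 35.7% of windows, with 2 matches in Des, 2 in Lrat, 6 in Tgfb1, 1 in Timp1 and 0 in Acta2. None of the 5 windows held the AP-1 letters TGANTCA or the TATA letters TATAAA, which were in 7.81% and 13.6% of all windows. Since TET1 acts on methylated cytosines in CpG, the number of CpG in each window is of interest, against a median of 7 over all windows. The counts were 30 for Tgfb1 and 21 for Lrat, but 11 for Des, 8 for Timp1 and 6 for Acta2, and methylation was not analysed here.

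Of the quiescent markers, Lrat (ENSMUSG00000028003, GRCm38 chr3:82892582-82903974) did not differ detectably in the mean but varied widely among TET1 KO livers. It had 14.2, 15.2 and 9.99 CPM in WT replicates 1 to 3. It had 8.33, 10.4, 25.8 and 6.45 CPM in TET1 KO replicates 1 to 4. TET1 KO replicate 3 lay above every WT liver and replicates 1 and 4 below every WT liver, a span of 4.0-fold within the genotype against 1.52-fold among WT livers. The means were 13.1 ± 2.76 (SD, n = 3) and 12.7 ± 8.85 CPM (SD, n = 4), and the log2 fold change was -0.04 (standard error, SE, 0.40, edgeR adjusted p = 0.954). The 95% interval of the fold, 0.526 to 1.79, leaves room for a change in either direction. Without TET1 KO replicate 3 the log2 fold change was -0.67 (edgeR adjusted p = 0.173).

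The high Lrat of TET1 KO replicate 3 went together with genes that retinoic acid switches on, which were chosen from the retinoid list after their values had been seen. Cyp26a1, which degrades retinoic acid and is induced by it, had 267, 44 and 18 counts in WT and 14, 26, 2846 and 61 in TET1 KO livers. Cyp26b1, an enzyme of the same family, had 136, 66 and 53 counts against 9, 41, 753 and 71. Rarb, a retinoic acid receptor gene, had 68, 67 and 13 counts against 16, 25, 101 and 42. All of them were highest in TET1 KO replicate 3, and none was called between genotypes, with edgeR adjusted p of 0.273, 0.372 and 0.906. After centring within genotype, log2 CPM of Lrat had Pearson's r of 0.849 with Cyp26a1, 0.798 with Cyp26b1 and 0.768 with Rarb over the 7 livers, which fell to 0.239, 0.0271 and 0.56 without replicate 3. These coefficients are descriptions and rest largely on that liver.

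**Figure D2:**
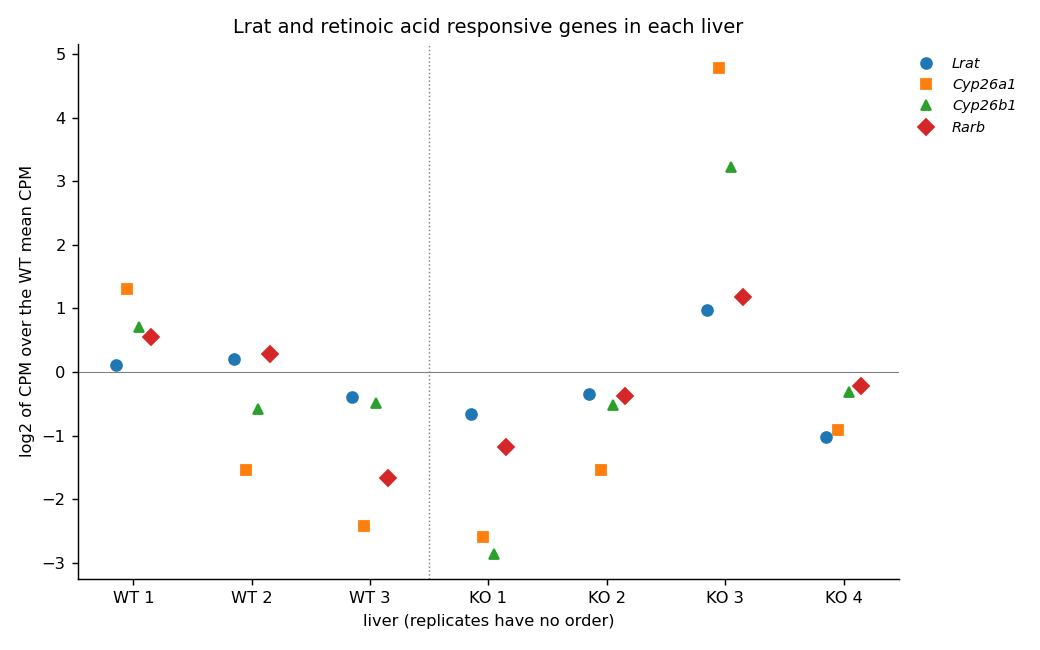
Level of Lrat, Cyp26a1, Cyp26b1 and Rarb in each liver as log2 of CPM over the mean CPM of the 3 WT livers. Points are single livers and the dotted line parts the genotypes; all 4 genes are highest in TET1 KO replicate 3, where Cyp26a1 reached 2846 counts.

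Des (ENSMUSG00000026208, chr1:75360292-75368579) had 7.23, 5.93 and 6.24 CPM in the WT livers. It had 7.14, 7.33, 7.98 and 10.5 CPM in the TET1 KO livers. WT replicate 1 lay just within the TET1 KO range, and TET1 KO replicate 4 was the highest of all. This gave a log2 fold change of 0.35 (SE 0.188, edgeR adjusted p = 0.249; exact two-sided permutation test, p = 0.143), with a 95% interval of the fold from 0.960 to 1.70. The 2 quiescent markers did not move as a pair, since the ratio of Lrat to Des was 1.97, 2.56 and 1.60 in the WT livers and 1.17, 1.41, 3.23 and 0.612 in the TET1 KO livers.

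Pdgfrb (ENSMUSG00000024620, chr18:61045127-61085067), the PDGF receptor through which stellate cells receive their main mitogen, had 9.11, 7.71 and 4.91 CPM in the WT livers. It had 5.32, 5.21, 6.09 and 5.52 CPM in the TET1 KO livers, which lay close together while WT livers spread over 1.85-fold. WT replicates 1 and 2 were above and WT replicate 3 below all TET1 KO livers. The fitted log2 fold change was -0.39 (SE 0.214, edgeR adjusted p = 0.266) and fell in size to -0.21 without WT replicate 1 (edgeR adjusted p = 0.571). The ratio of Des to Pdgfrb, which compares 2 stellate genes within a liver, was 0.795, 0.769 and 1.27 in WT and 1.34, 1.41, 1.31 and 1.91 in TET1 KO livers. The groups did not overlap in this ratio, by a narrow gap between WT replicate 3 and TET1 KO replicate 3. Of the 7 ratios between markers that were examined, it was the only ratio without overlap.

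Of the other PDGF genes, 0 of 5 tested were called by edgeR, and 1 in each direction had an unadjusted p under 0.05. Pdgfc, a ligand, had 2.46, 3.98 and 4.64 CPM in WT and 1.38, 2.04, 1.28 and 1.62 CPM in TET1 KO livers, groups that did not overlap (log2 fold change -1.23, SE 0.279, edgeR adjusted p = 0.0507). The adjusted p of Pdgfc was 0.00888 by DESeq2 and ranged up to 0.224, without WT replicate 2. Pdgfc was called in 9 of 14 alternatives, but in only 2 of the 7 fits that leave out a liver. Pdgfa, another ligand, had a log2 fold change of 0.81 (SE 0.255, edgeR adjusted p = 0.0935) and was called higher by DESeq2 (adjusted p = 0.0392).

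Tgfb1 (ENSMUSG00000002603, chr7:25687002-25705077), the chief profibrotic cytokine, had 9.89, 8.71 and 10.7 CPM in the WT livers. It had 12.5, 11.4, 7.16 and 8.81 CPM in the TET1 KO livers, 2 of them above and 1 below every WT liver. The estimated log2 fold change was 0.03 (SE 0.203, edgeR adjusted p = 0.947), with a 95% interval of the fold from 0.746 to 1.39, and its sign depended on the scaling.

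Among 22 other genes of the TGF-beta pathway that were tested, 0 were called higher and 1 lower, with a median log2 fold change of -0.27. The called gene was Tgfbr2, which encodes the receptor that binds the ligand, with 15.5, 18.5 and 18.8 CPM in WT and 10.3, 11.1, 10.8 and 10.6 CPM in TET1 KO livers. The TET1 KO livers lay within a narrow band below every WT liver (log2 fold change -0.72, SE 0.137, edgeR adjusted p = 0.0275). At an unadjusted p under 0.05 there were 6 lower and 1 higher, or 31.8% of the list, beside 26.3% of all genes in either direction and 12.7% in the lower one. The higher one was Smad3, a signal carrier of the receptor, with 10.2, 10.8 and 7.95 CPM in WT and 15.1, 13.2, 19.8 and 11.5 CPM in TET1 KO livers (log2 fold change 0.63, SE 0.205, edgeR adjusted p = 0.0988).

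The contractile markers did not differ between genotypes beyond the spread of the livers. Acta2 (ENSMUSG00000035783, chr19:34240336-34255585), the smooth muscle actin of the myofibroblast, had 4.97, 3.23 and 3.86 CPM in the WT livers. It had 3.63, 3.24, 4.71 and 7.56 CPM in the TET1 KO livers. Only TET1 KO replicate 4 lay above the WT range. The log2 fold change of 0.27 (SE 0.298, edgeR adjusted p = 0.585) became -0.051 without that liver (edgeR adjusted p = 0.912).

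Tagln (ENSMUSG00000032085, chr9:45929628-45936058), an actin-binding protein of smooth muscle, had 11.7, 9.41 and 7.73 CPM in WT and 8.33, 7.40, 6.802 and 12.4 CPM in TET1 KO livers. TET1 KO replicates 2 and 3 lay below the WT range and replicate 4 above it. Its log2 fold change was -0.13 (SE 0.231, edgeR adjusted p = 0.737) and -0.36 without TET1 KO replicate 4 (edgeR adjusted p = 0.262). Tagln overlaps Pcsk7, which had 2828 counts over the 7 livers, and reads in the overlap may be counted to either gene or to none.

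Within genotype, log2 CPM of Acta2 followed that of Des with Pearson's r of 0.975 over the 7 livers, and 0.924 without TET1 KO replicate 4, the tightest of the 45 pairs of markers. The coefficient of Acta2 with Tagln was 0.741 and fell to 0.231 without that liver. Beyond the markers, among 11841 genes searched, those nearest to Acta2 were Ccdc22 (r = 0.982), Des (r = 0.975) and Rps13-ps5 (r = 0.97). Among those nearest to Lrat were Gtf2ird1 (r = 0.966) and Lgalsl (r = 0.965). With so few livers sharing library and depth, coefficients of 0.9 or more were reached by 18 genes for Acta2 and 37 for Lrat.

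Other markers moved with Acta2 in TET1 KO replicate 4. The smooth muscle myosin gene Myh11 had 88, 57 and 58 counts in WT and 42, 59, 57 and 175 counts in TET1 KO livers. Calponin, Cnn1, had 12, 10 and 14 counts against 8, 4, 15 and 53. The bile duct keratin Krt19 had 20, 21 and 20 counts against 19, 15, 33 and 144, and the bile duct surface gene Epcam had 10, 13 and 5 counts against 11, 14, 16 and 105. All 4 were highest in that liver, and Acta2 had r of 0.903 with Krt19 and 0.796 with Myh11 over the 7 livers, and 0.734 and 0.348 without it. Summed CPM of the lists did not stand highest there. The contractile sum, 53.3% of it Cald1, was 415.7 CPM in TET1 KO replicate 4 against 469.6 to 553.1 CPM in the other TET1 KO livers. The cholangiocyte sum, 50.6% of it Spp1, was 75.3 CPM there and highest, at 85.2 CPM, in replicate 2. Mean log2 CPM, which weighs each gene alike, was highest of the 7 livers in TET1 KO replicate 4 for both lists. It was 2.86 against 2.34 to 2.63 for contractile and 1.78 against 0.462 to 1.05 for cholangiocyte genes. The part of bile duct or vessel tissue in the Acta2, Des and Tagln values was not tested.

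**Figure D3:**
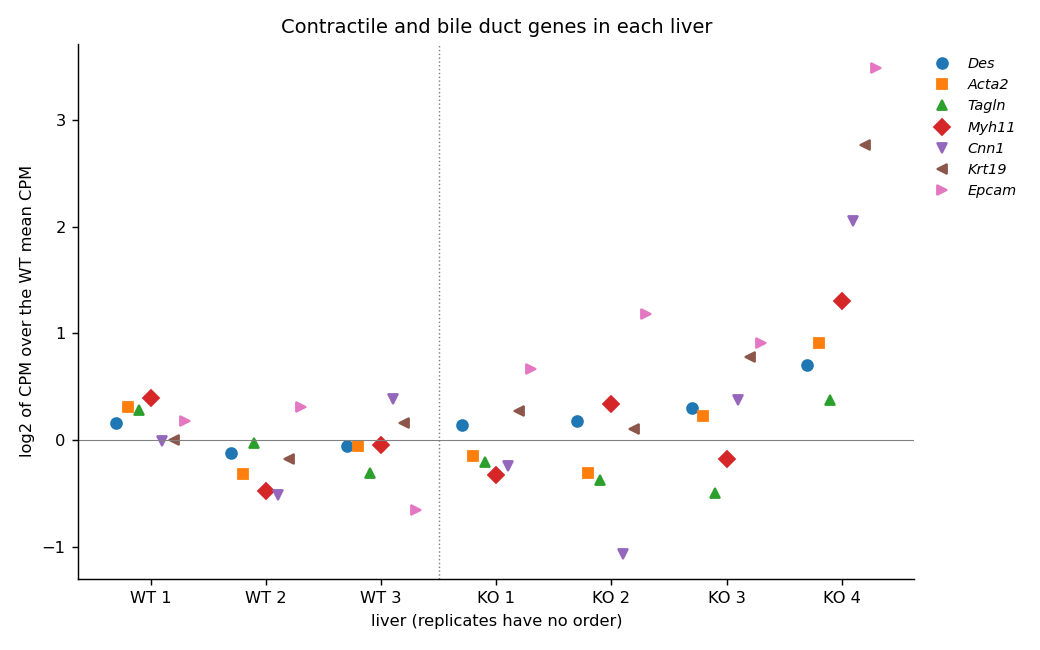
Level of Des, Acta2 and Tagln beside smooth muscle genes (Myh11, Cnn1) and bile duct genes (Krt19, Epcam), as log2 of CPM over the mean CPM of the 3 WT livers. Points are single livers and the dotted line parts the genotypes; all 7 genes are highest in TET1 KO replicate 4.

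The list of 14 further contractile genes tested had 0 called by edgeR in either direction, with 1 at an unadjusted p under 0.05, and a median log2 fold change of 0.20. That gene was Tpm1, a tropomyosin, with a log2 fold change of -0.37 (SE 0.121, edgeR adjusted p = 0.098) and groups that did not overlap. The next by p was Mylk, the myosin light chain kinase, at 0.34 (SE 0.156, edgeR adjusted p = 0.195).

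The matrix proteoglycans Dcn and Lum both bind collagen fibrils, and their genes lie 0.0473 Mb apart on chromosome 10. Within genotype their log2 CPM had Pearson's r of -0.297 over the 7 livers, and 0.595 without TET1 KO replicate 1. The same chromosome carries Tet1, at a distance of 34.6 Mb from Dcn. Dcn (ENSMUSG00000019929, chr10:97479500-97518163) had 208, 152 and 140 CPM in WT and 199, 143, 151 and 126 CPM in TET1 KO livers. The groups overlapped. The means were 167 ± 36.4 (SD, n = 3) and 155 ± 31.5 CPM (SD, n = 4), and the log2 fold change was -0.11 (SE 0.188, edgeR adjusted p = 0.736). The 95% interval of the fold ran from 0.696 to 1.24, so this depth and number of livers leave room for a difference of that size. Genes nearest to Dcn within genotype were Ap4m1 (r = 0.993), Npepl1 (r = 0.99) and Zdhhc20 (r = 0.987), with 236 genes at 0.9 or more.

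Lum (ENSMUSG00000036446, chr10:97565501-97572703) had the smallest p of the 10 markers. It had 8.91, 7.59 and 5.85 CPM in the WT livers. It had 2.88, 4.44, 4.81 and 5.47 CPM in the TET1 KO livers, all below the lowest WT liver. The means were 7.45 ± 1.53 (SD, n = 3) and 4.4 ± 1.10 CPM (SD, n = 4). The log2 fold change was -0.75 (SE 0.236, 95% interval -1.27 to -0.23), with an edgeR adjusted p of 0.0924, which did not pass the threshold (exact two-sided permutation test, p = 0.0571). The adjusted p was 0.0504 by DESeq2 and over the alternatives reached 0.317, without WT replicate 2. The ratio of Dcn to Lum was 23.4, 20.1 and 23.9 in WT and 69.2, 32.2, 31.4 and 23.0 in TET1 KO livers, and only TET1 KO replicate 4 fell within the WT range.

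**Figure D4:**
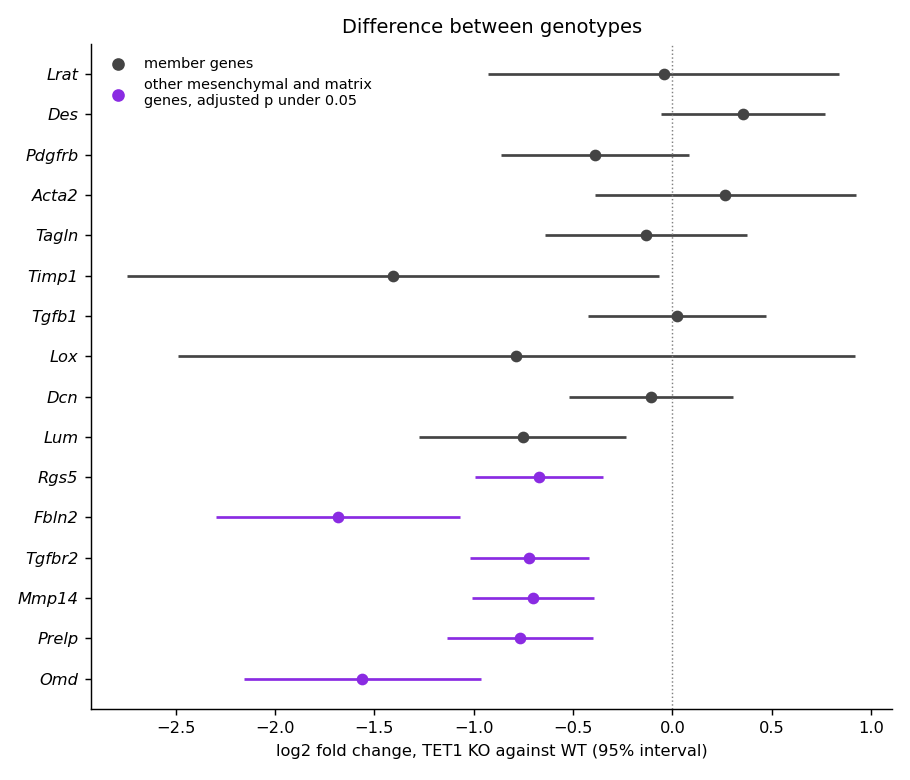
Log2 fold change of TET1 KO against WT livers with its 95% interval from the edgeR fit, for the 10 markers (grey) and 6 called genes of the stellate, matrix and TGF-beta lists (violet). Intervals of 8 of the 10 markers span 0; those of Lum and Timp1 lie below 0 but neither gene passed the adjusted threshold.

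Of the 6 other small leucine-rich proteoglycans tested, 0 were called higher and 2 lower, with a median log2 fold change of -0.39. At an unadjusted p under 0.05 there were 3 of 6, all lower, beside 12.7% of all genes in that direction. Omd, a collagen-binding keratan sulphate proteoglycan, had 4.18, 3.90 and 2.37 CPM in WT and 1.06, 0.986, 1.33 and 1.30 CPM in TET1 KO livers (log2 fold change -1.56, SE 0.271, edgeR adjusted p = 0.0207). Prelp had 29.97, 43.9 and 27.3 CPM against 20.0, 18.8, 20.3 and 20.3 CPM (log2 fold change -0.77, SE 0.167, edgeR adjusted p = 0.0458). Their groups did not overlap. Kera, a member of this family, had 0 counts in every library.

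The fibrillar collagens, the bulk of scar, had 0 of 5 tested genes called by edgeR, 4 of 5 at an unadjusted p under 0.05 in the lower direction (12.7% of all genes), and a median log2 fold change of -0.84. Col1a1 had 28.4, 15.7 and 10.2 CPM in WT and 7.70, 11.1, 8.18 and 10.2 CPM in TET1 KO livers. Col3a1 had 62.4, 39.7 and 21.7 CPM against 15.7, 26.4, 22.7 and 18.6 CPM, and Col1a2 had 35.5, 16.9 and 13.8 CPM against 12.0, 13.6, 10.6 and 13.2 CPM. WT replicate 1 was the highest of all livers for each of them, and only Col1a2 separated the groups. The edgeR adjusted p was 0.0874, 0.0853 and 0.101 for Col1a1, Col3a1 and Col1a2, and 0.024, 0.0186 and 0.0418 by DESeq2. Without WT replicate 1 the log2 fold changes of -0.96, -0.99 and -0.84 of Col1a1, Col3a1 and Col1a2 became -0.49, -0.58 and -0.33. Without WT replicate 3 they became -1.26, -1.31 and -1.10, and Col1a1 (edgeR adjusted p = 0.0333) and Col3a1 (edgeR adjusted p = 0.0197) were called.

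Lox (ENSMUSG00000024529, chr18:52516060-52529867), which cross-links collagen, had 10, 14 and 2 counts in WT and 0, 3, 3 and 11 counts in TET1 KO livers. At 0 counts a library allows up to 3. The groups overlapped, and the log2 fold change of -0.78 had a standard error of 0.772 (edgeR adjusted p = 0.531), so no difference was detectable at this depth. Of 12 other genes for lysyl oxidases and collagen-modifying enzymes, 0 were called by edgeR and 1 had an unadjusted p under 0.05. It was Loxl2, with 4.82, 4.39 and 2.93 CPM in WT and 1.82, 2.33, 2.76 and 1.95 CPM in TET1 KO livers (log2 fold change -0.87, SE 0.248, edgeR adjusted p = 0.0789). DESeq2 called Loxl2 lower (adjusted p = 0.0451). The next by p was Plod3, a lysyl hydroxylase, at 0.31 (SE 0.157, edgeR adjusted p = 0.227).

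Timp1 (ENSMUSG00000001131, chrX:20870166-20874737), an inhibitor of matrix metalloproteinases that rises in injured liver, was counted 18, 12 and 14 times in WT. It had 0, 5, 4 and 10 counts in the TET1 KO livers, all below the lowest WT count. Its log2 fold change was -1.40 (SE 0.607, 95% interval -2.74 to -0.07), with an edgeR adjusted p of 0.173 (exact two-sided permutation test, p = 0.0571). The number of reads was small, 63 over the 7 livers, and Syn1, which overlaps Timp1, had 55 counts. Of 9 other metalloproteinases and inhibitors tested, 0 were called higher and 1 lower, and 3 lower and 1 higher had an unadjusted p under 0.05 (44.4%, beside 26.3% of all genes). The called gene was Mmp14, a membrane-bound collagenase, with 25.5, 27.2 and 23.9 CPM in WT and 13.8, 18.03, 14.6 and 16.4 CPM in TET1 KO livers (log2 fold change -0.70, SE 0.139, edgeR adjusted p = 0.033). Mmp12, the macrophage elastase, had the next smallest p, at a log2 fold change of -1.77 (SE 0.59, edgeR adjusted p = 0.103), and was called lower by DESeq2 (adjusted p = 0.0475).

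The quiescent and the activated markers were set against each other within each liver, as mean log2 CPM of Lrat and Des less that of the 8 others. The difference was 0.54, 0.76 and 0.75 in the WT livers and 1.25, 1.00, 1.80 and 0.54 in the TET1 KO livers. Replicates 1, 2 and 3 of TET1 KO exceeded the WT range, and replicate 4 lay at its lower edge. The means were 0.68 ± 0.12 (SD, n = 3) and 1.15 ± 0.53 (SD, n = 4), with no test made over chosen genes. Leaving out TET1 KO replicate 3, the liver with high Lrat, lowered the difference between the means from 0.46 to 0.24 on the log2 scale. Low counts of Timp1 and Lox weigh as much in this mean as the abundant Dcn. TET1 KO replicate 1 had 0 counts of both, which raised its difference. On summed CPM that liver did not lean to the quiescent side. Its quiescent sum was 15.47 CPM, below the WT range of 16.22 to 21.46 CPM. Its activated sum was 232.0 CPM, within the WT range of 173.8 to 254.2 CPM, and Dcn made up 81.6% of the activated sums. Only TET1 KO replicate 3, at 33.76 CPM, had a quiescent sum above the WT range.

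Other genes of resting stellate cells gave 0 called higher and 1 lower of 17 tested, with a median log2 fold change of -0.10. The called gene was Rgs5, a regulator of G protein signalling in stellate cells and pericytes, with 22.7, 29.5 and 22.7 CPM in WT and 16.3, 13.7, 16.5 and 16.2 CPM in TET1 KO livers (log2 fold change -0.67, SE 0.146, edgeR adjusted p = 0.046). Bmp5, a BMP ligand, had the next smallest p, with 8.32, 9.12 and 6.24 CPM against 5.45, 4.65, 4.30 and 4.41 CPM (log2 fold change -0.75, SE 0.189, edgeR adjusted p = 0.0629). At an unadjusted p under 0.05 there were 5 of 17, all lower, or 29.4% of the list, beside 26.3% of all genes in either direction and 12.7% in the lower one, and 6 of 17 had a log2 fold change above 0. DESeq2 called 3 of the list, Rgs5, Hgf and Bmp5, all lower. The sum of the 18 resting genes was 397.9 to 430.3 CPM in WT and 297.5 to 396.0 CPM in TET1 KO livers, without overlap. Without Steap4, a gene left out after its wide WT range had been seen, the sums were 216.6 to 348.3 CPM and 242.0 to 338.4 CPM and overlapped.

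Other genes of activated stellate cells and myofibroblasts gave 0 called higher and 1 lower of 16 tested, with a median log2 fold change of -0.33. At an unadjusted p under 0.05 there were 6 lower and 1 higher, or 43.8% of the list, beside 26.3% of all genes in either direction and 12.7% in the lower one. DESeq2 called 3, Fbln2, Postn and Ccn2, all lower. The called gene was Fbln2, an extracellular matrix fibulin, with 2.76, 3.98 and 2.26 CPM in WT and 0.877, 0.845, 1.07 and 0.928 CPM in TET1 KO livers (log2 fold change -1.68, SE 0.279, edgeR adjusted p = 0.0176). Postn, a matricellular protein of scar, had the next smallest p (log2 fold change -0.92, SE 0.261, edgeR adjusted p = 0.0789).

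**Figure D5:**
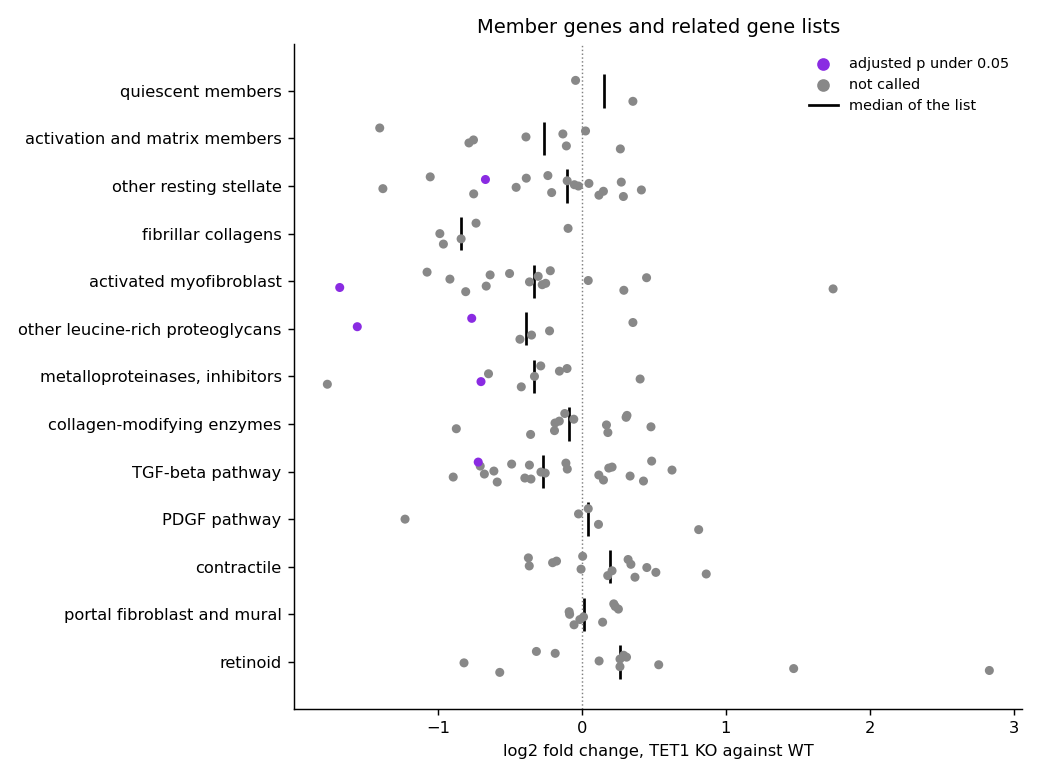
Log2 fold change of TET1 KO against WT livers for every tested gene of the marker set and of 11 related lists. Each point is a gene, violet where the edgeR adjusted p was under 0.05, and black bars are medians; the median of the fibrillar collagens was -0.84, while that of the portal fibroblast list was 0.01.

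The calls among related genes were not stable to leaving out a liver. Tgfbr2, Omd, Prelp, Mmp14, Rgs5 and Fbln2 were all called by DESeq2 too. By edgeR none of them was called without WT replicate 2, where the adjusted p lay at 0.127, 0.116, 0.165, 0.149, 0.206 and 0.104. None was called without TET1 KO replicate 2 either, at 0.061, 0.0552, 0.103, 0.0512, 0.104 and 0.0502. Of the 7 fits that each leave out a liver, Fbln2 was called in 5, Tgfbr2 and Omd in 3 each, Prelp in 2 and Mmp14 and Rgs5 in 1 each. The log2 fold changes were below 0 in all of these fits, and without WT replicate 2 they were -0.69 for Tgfbr2, -1.48 for Omd, -0.54 for Prelp, -0.66 for Mmp14, -0.54 for Rgs5 and -1.43 for Fbln2.

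Markers of other liver cells were read in the same fit. Portal fibroblast and vascular mural markers, another source of Acta2, Tagln and Dcn, gave 0 of 9 tested genes called by edgeR and none at an unadjusted p under 0.05, and their sum was 27.4 to 32.6 CPM in WT and 26.2 to 34.4 CPM in TET1 KO livers. The 2 with the smallest p were Notch3 at 0.25 (SE 0.392, edgeR adjusted p = 0.703) and Thy1 at 0.22 (SE 0.38, edgeR adjusted p = 0.732). Of the retinoid genes, 0 of 12 tested were called by edgeR and 1, the hormone-sensitive lipase gene Lipe, had an unadjusted p under 0.05 (log2 fold change 0.53, SE 0.212, edgeR adjusted p = 0.147). Pnpla3, which releases retinol from stellate cell droplets, had a log2 fold change of -0.82 (SE 0.388, edgeR adjusted p = 0.205), and its groups did not overlap, lower in TET1 KO.

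Cholangiocyte markers summed to 41.7 to 48.9 CPM in WT and 68.5 to 85.2 CPM in TET1 KO livers, without overlap, and 5 of 6 tested had an unadjusted p under 0.05 in the higher direction (13.6% of all genes), though 0 were called by edgeR. DESeq2 called 2, Sox9 (adjusted p = 0.00294) and Epcam (adjusted p = 0.0432), both higher. Of the edgeR fits that leave out a liver, only that without TET1 KO replicate 4 called any of the list. It called 2, with 891 genes called over the whole table. Sox9 led with a log2 fold change of 1.22 (SE 0.289, edgeR adjusted p = 0.0569), followed by Spp1 at 0.58 (SE 0.174, edgeR adjusted p = 0.086). Macrophage markers summed to 257 to 435 CPM in WT and 194 to 434 CPM in TET1 KO livers, and 2 of 12, both lower, had an unadjusted p under 0.05, of which Cd9 was called (log2 fold change -1.04, SE 0.193, edgeR adjusted p = 0.0259), a call kept in 3 of the 7 fits that leave out a liver and lost on leaving out WT replicate 1, 2 or 3 or TET1 KO replicate 3. Endothelial markers summed to 234 to 266 CPM in WT and 237 to 260 CPM in TET1 KO livers. None of 10 endothelial genes was called by edgeR and 3, all lower, had an unadjusted p under 0.05, where Lyve1 (log2 fold change -1.08, SE 0.304, edgeR adjusted p = 0.0778) and Tek (-0.37, SE 0.156, edgeR adjusted p = 0.169) had the smallest p. Lyve1 was called lower by DESeq2 (adjusted p = 0.0144). Hepatocyte, lymphocyte, neutrophil, mesothelial and white fat markers had 0 called by edgeR of 10, 6, 3, 5 and 1 tested, with 2 hepatocyte genes (Apoa1 higher, Apob lower) and 1 lymphocyte gene (Cd79b, higher) at an unadjusted p under 0.05. DESeq2 called 2 of the hepatocyte genes, Apoa1 and Serpina1a, both higher, and none of the other 4 lists. No marker of these cell type lists was at 0 in every library. Mesothelial markers of the liver capsule summed to between 1.44 and 11.6 CPM. The part of shifts in these cells in the marker values was not tested.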

How the data were processed

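Liver RNA of 3 WT and 4 TET1 KO mice was analysed, with groups and replicate numbers taken from the sample labels. The authors deposited 1 table of raw read counts per mouse, not normalized. The submitters' processing notes name Trimmomatic 0.36, GSNAP, featureCounts 1.5.3 and GRCm38, without stating which step used which setting. The annotation release and the strand setting of the counting are not given in the sources used here, so overlapping and antisense genes are uncertain. Of 51431 entries, 5 repeats were left out, and genes were joined by identifier because 26 symbols had been turned into dates in 1 table.

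The genotypes were compared with edgeR 4.0.16 in R 4.3.3 (filterByExpr, TMM, glmQLFit with legacy = FALSE, no covariates), with p-values adjusted by the Benjamini-Hochberg method over 14754 genes and called under 0.05. The script was tested on simulated data. CPM was TMM-scaled, log2 CPM used a prior count of 2, and RPKM used exon lengths of GENCODE M1 matched by identifier. Exact two-sided permutation tests were run on single values. DESeq2 1.42.0, its size factors, library size only, other filters on low counts, robust dispersions, a replicate block, other thresholds and leaving out each mouse were the alternatives. Python 3.11 with matplotlib 3.10.9 drew the figures.

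The markers and lists were chosen with earlier results of these data known, and no test was made over a list. The genes named are the 10 markers, Tet1, the called genes of each list or else those with the smallest p, 3 collagens and the 3 genes most like Lrat, Acta2 and Dcn, of which 1 is not reported here. Cyp26a1, Cyp26b1, Rarb, Myh11, Cnn1, Krt19, Epcam, Smad3, Bmp5, Postn, Mmp12, Hgf, Ccn2, Steap4, Serpina1a, Aldh1a1, Adipoq and Plin1 were named after their values were seen. No pair of same-genotype libraries differed by less than the sampling noise (lowest chi-square per degree of freedom 24.95). The labels give each sample as a liver with a replicate number and no batch or date. Intervals are at 95% and, with the limit of 3 counts at 0, cover the spread between these mice or counting error only.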

Additional observations from a re-analysis of the deposited data

Results flagged for a closer look

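In the 4 TET1 KO livers, 36 values (10 markers, 19 list sums and 7 ratios between markers) were searched for 1 liver that stood apart, by Dixon's gap to the nearest liver over the whole range. Of these, 5 passed Dixon's 95% critical value, where chance gives about 1 in 20 or 1.8. TET1 KO replicate 4 was far for the ratio of Des to Pdgfrb (0.833), with 1.91 against 1.31 to 1.41 in the other TET1 KO livers. TET1 KO replicate 2 was far for the summed small leucine-rich proteoglycans (0.852), at 77.4 CPM against 88.3 to 90.2 CPM. The same liver was far for the summed lymphocyte markers (0.906), at 9.65 CPM against 4.76 to 5.22 CPM. It was far too for the summed white fat markers (0.982), where Adipoq had 4.23 CPM and Plin1 4.93 CPM. TET1 KO replicate 1 was far for the summed retinoid genes (0.858), at 4295 CPM against 5622 to 5842 CPM, where Aldh1a1, which makes retinoic acid, had 461.2 CPM against 1274 to 1406 CPM and Rbp4, the largest part of the sum, 2888 CPM against 3113 to 3197 CPM. None of the 10 markers passed this limit by itself, and the part of these differences in the marker values was not tested.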

How the results depend on the processing

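None of the 10 markers was called under any alternative except 1, Lum, at an adjusted p under 0.1. The genes called over the whole table were 298, 592 with no filter, 1315 by DESeq2 and 38 (without WT replicate 2) to 891 (without TET1 KO replicate 4) when a mouse was left out. The replicate block gave 1326, but same-numbered livers did not deviate together (correlations 0.209, -0.123 and -0.0964), so the numbers do not pair the mice. With library size only, 107 were higher and 312 lower, in place of 129 and 169. Log2 fold changes near 0 changed sign. Lrat was 0.0061 with the replicate block and between -0.67 and 0.18 when a mouse was left out, with 0.0018, 0.064, 0.11 and 0.025 among those values. Acta2 was -0.054 with the replicate block and between -0.051 and 0.44 when a mouse was left out. Tgfb1 was -0.066 with library size only, -0.0034 with no filter and between -0.10 and 0.14 when a mouse was left out. On leaving out a mouse, Tagln lay between -0.36 and 0.020 and Dcn between -0.25 and 0.071, positive without WT replicate 1. The quiescent less activated difference lay between 0.24 and 0.66 when a mouse was left out, an alternative added after the data had been seen. Of 328 alternatives for single genes, 259 kept direction and side of the threshold, many of them for genes never called. Another 32, all for genes called in the main fit, lost the call, while 22 gained a call and 15 changed sign. Of 171 alternatives for the number called in a list, 48 moved it by over 1.5 times. DESeq2 called 3 collagens in place of 0, 3 resting and 3 activated genes in place of 1 each, 3 proteoglycans and 2 proteases in place of 2 and 1, and 2 PDGF, cholangiocyte and hepatocyte genes each in place of 0. Timp1 had no value in 3 and Lox in 5, as the filter dropped them. Depth limits Timp1, Lox and Tet1 most. The causes were not tested.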
